A study of Drosophila melanogaster with 3 samples.

Results

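Sex lethal (Sxl) is the gene at the head of sex determination in Drosophila, and its regions in a ChIP-seq experiment on the protein CG4617 are described here. All deposited regions that overlapped the gene or the 5 kb on either side of it were taken, in 5 lists of regions. This gave 65 regions of 87228 in all, of which 6 of 5558 were in the thresholded list, 14 of 20051 in the pooled list, 18 of 30000 in the list of replicate 1, 17 of 17251 in that of replicate 2 and 10 of 14368 in that of replicate 3. Sxl was chosen by its regions in these same lists, so their number, position and signal are given as a description and no test was made.

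The chromatin came from whole mixed-sex embryos collected over 0 to 24 hours, from a transgenic fly line with a stable CG4617 transgene tagged with GFP at the C terminus. There were 3 biological replicates in the single group CG4617-eGFP anti-GFP ChIP, all with the same transgene, and no group without it was among the samples. Chromatin had been sheared to 200 to 800 bp and precipitated with an anti-GFP antibody. The promoter that drives the transgene and the length of DNA around CG4617 that it carries were not given in the sources used here. Embryos of both sexes and all ages in the window were mixed.

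Sxl encodes an RNA-binding protein that is made in female embryos and not in male ones. In young embryos an early promoter answers to the number of X chromosomes, and proteins encoded on the X and maternal proteins act on it. Later a promoter farther upstream is used in both sexes, and Sxl protein then keeps the gene on in females by acting on the splicing of its own transcripts. Downstream, Sxl protein acts on the splicing of transformer (tra) RNA and blocks the production of MSL-2, a protein needed for dosage compensation in males.

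The sequences around the deposited summits are shown first, since they are the DNA on which the description turns. Peaks are numbered 1 to 6 from inside Sxl towards CG4617. Each line gives 101 bp centred on the summit of a thresholded peak, from the RefSeq copy of Release 6 (dm6), 5′ to 3′ on the minus strand, which is the strand of Sxl. The windows are X:7095041-7095141 for peak 1, X:7095695-7095795 for peak 2, X:7096655-7096755 for peak 3, X:7097344-7097444 for peak 4, X:7098061-7098161 for peak 5 and X:7101768-7101868 for peak 6. The last line gives the 150 bp upstream of the early Sxl start, X:7092884-7093033, where no thresholded peak lay. Capitals mark the words found of those searched: TATCG in peak 3 is CGATA read on the other strand, AGTGTGACC in peak 5 is GGTCACACT read on the other strand, and CTACCTG upstream of the early start is CAGGTAG read on the other strand.
Peak 1: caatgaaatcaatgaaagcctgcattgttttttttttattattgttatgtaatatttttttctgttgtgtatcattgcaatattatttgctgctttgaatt
Peak 2: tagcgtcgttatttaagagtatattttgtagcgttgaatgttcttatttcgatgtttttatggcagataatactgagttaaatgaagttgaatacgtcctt
Peak 3: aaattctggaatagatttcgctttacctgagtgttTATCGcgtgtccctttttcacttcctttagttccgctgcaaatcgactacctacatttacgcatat
Peak 4: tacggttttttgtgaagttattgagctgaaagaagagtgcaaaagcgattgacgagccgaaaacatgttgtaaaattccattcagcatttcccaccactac
Peak 5: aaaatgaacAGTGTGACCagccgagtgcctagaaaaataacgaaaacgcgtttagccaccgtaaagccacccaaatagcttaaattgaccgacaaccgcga
Peak 6: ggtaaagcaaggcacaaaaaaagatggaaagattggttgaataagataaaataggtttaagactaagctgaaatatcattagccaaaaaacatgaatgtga
Early start upstream: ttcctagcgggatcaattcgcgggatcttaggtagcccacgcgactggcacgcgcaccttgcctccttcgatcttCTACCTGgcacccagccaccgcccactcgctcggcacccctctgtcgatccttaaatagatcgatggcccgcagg

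The thresholded peaks at Sxl lay just upstream of the distal start and in introns of the first part of the gene, and none lay at the early start. Sxl (FBgn0264270) spans X:7074550-7098053 on the minus strand, 23504 bp, with 25 coding transcripts in Ensembl release 115. Peaks 1 to 5 had their summits within 3020 bp of each other, on both sides of the distal start. Peak 6, the region with the highest signal of the 6, lay 3765 bp upstream of that start in an intron of the neighbouring gene CG4615, and 737 bp from the 3′ end of CG4617, the gene whose protein was precipitated.

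The annotation gives Sxl 4 start positions. The distal start at X:7098053 is that of the late promoter and serves 18 transcripts. A second start lies 285 bp downstream of it and serves 1 transcript, and the third lies 987 bp downstream and serves 2. The early start at X:7092883 lies 5170 bp downstream of the distal start and serves 4 transcripts. Of the transcripts from the distal start, 16 of 18 contain the second exon of the late form, against 0 of the 4 from the early start.

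Peak 5 (X:7098103-7098232, 130 bp wide) was the peak nearest to any start. Its summit lay 58 bp upstream of the distal start, and its signal was 229.9, which ranked 2542 of 5558 thresholded peaks. Signal is the deposited value of the authors on a scale that is not stated, so it is used here only within a list. Peak 4 (X:7097174-7097613, 440 bp) lay in an intron with its summit 328 bp upstream of the third start. Its signal of 151.2 was the lowest of the 6 and ranked 4682.

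Peaks 1 to 3 lay downstream of the third start, in introns of every transcript that spans them. Peak 3 (X:7096576-7096745, 170 bp) had a signal of 260.7 and ranked 1978, and its summit lay 1348 bp downstream of the distal start. Peak 2 (X:7095638-7095801, 164 bp) had a signal of 232.8 and ranked 2476, with its summit at 2308 bp. Peak 1 (X:7094871-7095310, 440 bp) had a signal of 172.8 and ranked 3985, with its summit at 2962 bp. In the thresholded list, peaks 3, 2 and 5 thus stood at 35.6%, 44.5% and 45.7% from the top, and peaks 1 and 4 lower, at 71.7% and 84.2%.

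Peak 6 (X:7101594-7101924, 331 bp) had a signal of 457.5 and ranked 403 of 5558, within the strongest 7.25%. Among the 888 thresholded peaks on the X chromosome it ranked 33. Its summit lay 482 bp from the start of CG4615, which is transcribed on the same strand as Sxl and ends 524 bp before the distal Sxl start. Peak 6 therefore falls within the window of 500 bp used for promoter peaks, but for CG4615 and not for Sxl.

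**Figure D1:**
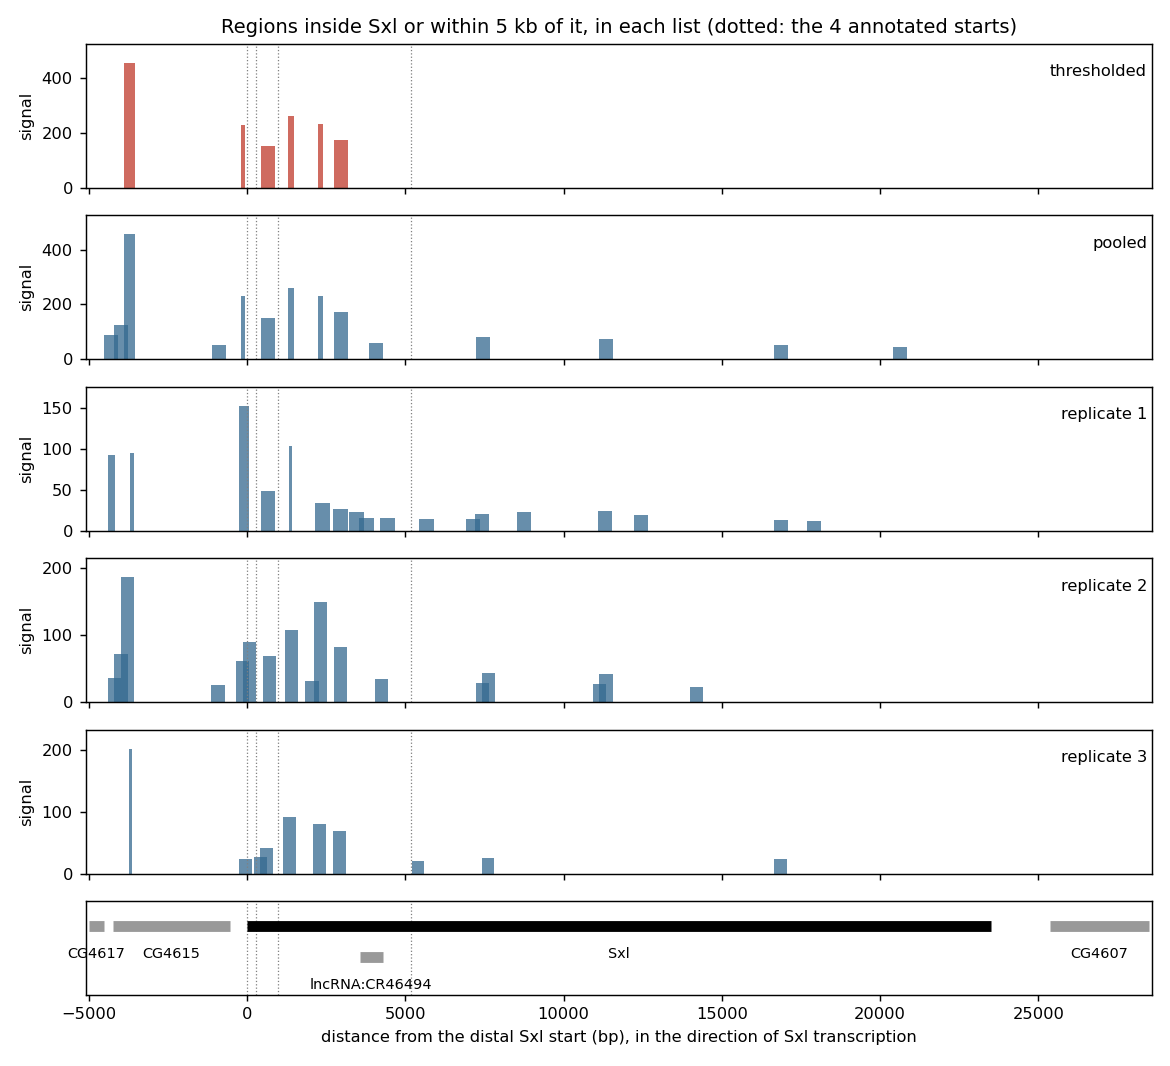
Signal of every region inside Sxl or within 5 kb of it, in the thresholded, pooled and 3 replicate lists (each panel has its own signal axis), against the distance from the distal Sxl start in bp in the direction of transcription; each bar spans 1 region, dotted lines are the 4 starts, and the bottom panel shows Sxl in black and other genes in grey (mir-4956 is not drawn). The 6 thresholded peaks lie around the first 3 starts and upstream of them, the nearest being 2208 bp from the early start.

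With a window of 500 bp, 3 of the 4 starts had a thresholded summit beside them. The summit of peak 5 lay 58 bp upstream of the distal start and 343 bp upstream of the second start, and that of peak 4 lay 328 bp upstream of the third. The summit of peak 3 also lay within the window, 361 bp downstream of the third start. Peak 5 thus stands for both the distal and the second start. Across the genome, 12.4% of the 250 protein-coding genes with 4 annotated starts had a summit beside at least 3 of them, and 37.1% of all 13968 protein-coding genes had a summit within 500 bp of any start of their own. No thresholded or pooled region overlapped a Sxl start itself. The replicate lists did have regions over the distal start, 1, 2 and 1 in replicates 1, 2 and 3. Over the second start they had 0, 1 and 1. The lack of overlap in the thresholded list therefore does not show that signal stopped short of the distal start.

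The early start was the exception. The nearest thresholded summit, that of peak 1, lay 2208 bp upstream of it. In the pooled list the nearest summit lay 1096 bp upstream, in a region with a signal of 58.6 that ranked 12390 of 20051. In replicate 1 the nearest summit lay 504 bp downstream, with a signal of 14.4 that ranked 21721 of 30000.

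In replicate 2 the nearest summit to the early start lay 932 bp upstream, with a signal of 34.2 that ranked 8557 of 17251. In replicate 3 it lay 229 bp downstream, with a signal of 20.8 that ranked 10553 of 14368. The replicates thus placed it on different sides of the start and in the middle or lower part of their lists, which include background regions. Read depth is unknown and embryos of all ages were mixed, so the lists do not show that binding at the early start is absent.

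Beyond the early start, over the remaining 18333 bp to the 3′ end of the gene, the thresholded list held 0 regions and the pooled list 4. The signals of those 4 pooled regions were 82.3, 74.2, 50.9 and 42.4. The replicate lists held 8, 5 and 3 regions there in replicates 1, 2 and 3. None of the 65 regions lay in the 5 kb downstream of the gene, and none had its summit in a coding exon. The 65 are not separate regions, since the thresholded ones recur in the pooled list and the replicate lists cover many of the same places. The share of all summits that fall in coding exons was not counted. Of the 14 pooled regions, 8 had their summit in a Sxl intron, 1 in an exon with untranslated sequence and 5 upstream of the gene.

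The 8 pooled regions that were not in the thresholded list had signals between 42.4 and 124.8. The thresholded list is the strongest 5558 regions of the pooled list, with 128.76 as its lowest signal. At Sxl the members just inside and just outside that limit were peak 4, at 151.2, and a region over CG4615 (X:7101811-7102250), at 124.8. That region overlapped peak 6 by 114 bp and the next one towards CG4617, with a signal of 89.6, by 121 bp. Those were the 2 overlaps among the pooled regions, and the 6 thresholded peaks did not overlap each other, with gaps of 327, 774, 428, 489 and 3361 bp from peak 1 to peak 6.

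Replicate lists held 2, 6 and 1 overlapping neighbours among their Sxl regions in replicates 1, 2 and 3. In replicate 2, 2 regions that overlapped by 206 bp lay over the distal start, with signals of 89.5 and 61.6. Overlapping regions, and those closer together than the sheared fragments of 200 to 800 bp, can share reads and are not separate measurements. Most regions of a list also shared a single width. It was 440 bp for 71.6% of thresholded and 91.9% of pooled regions. In replicates 1, 2 and 3 it was 460, 420 and 396 bp, for 92.2%, 97.5% and 98.1%. Widths, gaps and overlaps of such regions are therefore not measured extents of binding.

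The replicates all listed regions at the 6 peaks and ranked them differently. Their lists differ in length, so a position in one list is not a measure of change against another, and the order of the peaks within a list is what can be set side by side. Summits of 5 of the 6 peaks lay inside a region of all 3 replicates, against 87.5% of all thresholded peaks. The exception was peak 6, whose summit lay inside a region of replicate 2 only, while narrow regions of replicates 1 and 3 overlapped 41.4% and 31.4% of the peak. When each replicate list was limited to its 5558 strongest regions, the summit of 1 of the 6 peaks, peak 3, was held by all 3. The share over all thresholded peaks was 61.4%. The regions that overlapped peak 6 were also among the 5558 strongest in each replicate, at ranks 2653, 341 and 83. Its summit, however, lay outside those of replicates 1 and 3.

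Peak 5, at the distal start, changed its place in the order most. Its signals of 152.2, 89.5 and 23.9 in replicates 1, 2 and 3 placed it in the strongest 2.80%, 14.8% and 56.5% of those lists. It was first of the 5 peaks in and beside the gene in replicate 1 and last in replicate 3. The replicate 2 value is that of the stronger of its overlapping regions over this peak.

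Peak 2 had signals of 34.0, 149.1 and 79.4 in replicates 1, 2 and 3, in the strongest 28.8%, 4.20% and 7.94% of the lists. Peak 1 had signals of 26.3, 82.5 and 68.1, in the strongest 36.8%, 17.0% and 11.3%. Peak 2 stood above peak 1 within each of the 3 lists, and both stood below peak 5 in replicate 1 and above it in replicate 3.

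Peak 3 was first or second of the 5 in each list. Its signals were 102.5, 106.8 and 91.1 in replicates 1, 2 and 3, in the strongest 7.52%, 10.3% and 5.60%. Peak 4 had signals of 48.4, 68.0 and 42.1, in the strongest 20.9%, 22.5% and 25.8%. Peak 3 therefore stood above peak 4 within each of the 3 replicate lists.

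Peak 6, upstream at CG4615, had signals of 94.3, 185.9 and 201.9 in replicates 1, 2 and 3, in the strongest 8.84%, 1.98% and 0.578%. It was stronger than the 5 peaks in and beside Sxl in replicates 2 and 3, while in replicate 1 peaks 3 and 5 were stronger. The order of the 5, strongest first, was 3, 2, 5, 1, 4 in the pooled list, 5, 3, 4, 2, 1 in replicate 1, 2, 3, 5, 1, 4 in replicate 2 and 3, 2, 1, 4, 5 in replicate 3. On the deposited scale, the strongest of the 5 had 1.72 times the signal of the weakest in the pooled list. The ratios were 5.80, 2.19 and 3.81 in replicates 1, 2 and 3. They rest on an unstated scale and are not to be set against each other between lists. In the pooled list, all 5 also had to lie above the thresholded limit of 128.76.

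**Figure D2:**
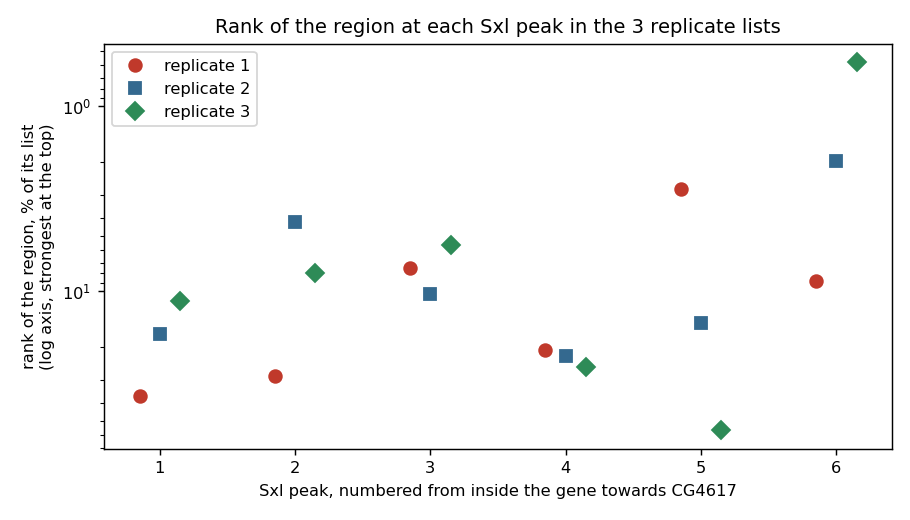
Position of the region at each of the 6 Sxl peaks in the 3 replicate lists, as a percent of the list on a log axis with the strongest at the top; each point is 1 replicate. The lists differ in length, so points are to be read within a replicate: peak 5, at 2.80%, is the highest point of replicate 1, and at 56.5% the lowest of replicate 3.

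Summits in the replicates lay within 71 bp of the thresholded summit for peaks 1 to 4. For peak 5 the summit lay upstream of the distal start in replicates 1 and 3, by 88 and 54 bp. Replicate 2 had 2 overlapping regions there, the stronger with its summit 78 bp downstream of the start and the weaker with its summit 136 bp upstream. Replicate 2 thus had a summit on each side of the distal start, and the one upstream was the nearer to the thresholded summit.

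Sxl carried more peaks than most genes. Its 6 thresholded regions in the gene and its flanks stand beside a median of 1 over all protein-coding genes, of which 62.5% had at least 1 and 1.24% had 6 or more. On the X chromosome, 15 of 2196 genes had 6 or more. Inside the gene itself Sxl had 4 summits, against a median of 0, and 0.315% of all genes had 4 or more. A long gene has more room for peaks, and among the 1351 genes between 0.5 and 2 times the length of Sxl the share was 1.55%.

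**Figure D3:**
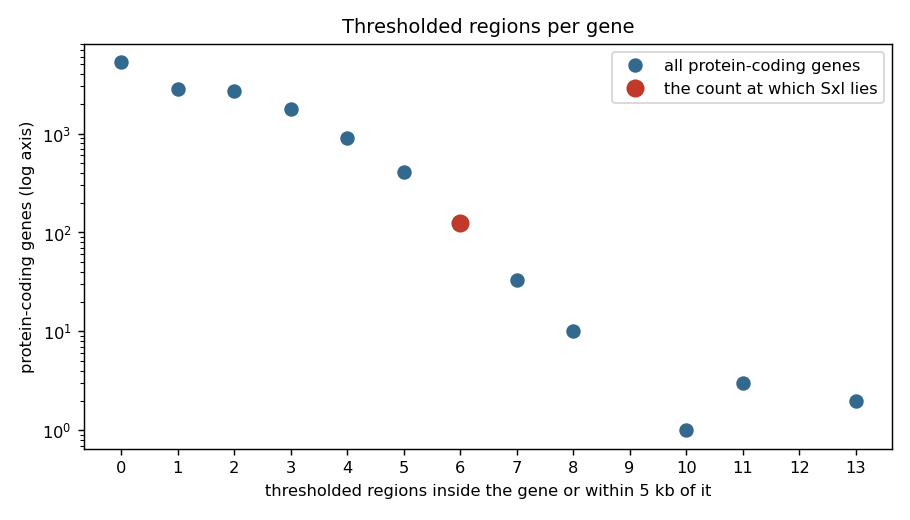
Number of protein-coding genes (log axis) by the number of thresholded regions inside the gene or within 5 kb of it; each point is a count of genes, and the red point is the count that includes Sxl. With 6 regions, Sxl lies among 124 genes, and 173 of 13968 genes have 6 or more.

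Genes with the most summits inside them were CG1677 with 13, u-shaped (ush) with 10, Raf and scribbler (sbb) with 9 each and kirre with 8. Sxl therefore does not stand at the head of this order. What few loci shared with it was the close spacing: 0.27% of thresholded peaks, 15 of 5558, lay in a run of 5 summits within 3020 bp. Those 15 peaks made up 3 runs, and the width of the run was chosen from Sxl after its values were seen.

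The other 2 runs lay on 3R. One spanned 2783 bp over ClpX, RhoGAP92B and Surf6, and the other 2926 bp over CG5934, CG5938 and l(3)mbt. In each of them 4 of the 5 summits were within 500 bp of a protein-coding start. At Sxl, 3 of the 5 were, and all 5 fell on a single gene or its start, whereas each other run touched 3 genes.

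Towards the 3′ end of Sxl and beyond, the next thresholded summit was 81109 bp from peak 1. Of the 887 gaps between neighbouring summits on the X, 76 were at least as long, or 8.57%, and the median gap was 8033 bp. On the CG4617 side the next summit lay 2694 bp beyond peak 6. Sxl thus sits at the edge of a group of peaks, with a long stretch without thresholded summits on its 3′ side.

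That group of peaks also holds the gene of the precipitated protein. CG4617 (X:7102555-7104491) lies 4501 bp upstream of Sxl on the same strand, and a thresholded peak (X:7104502-7104618, signal 289.0, rank 1569) had its summit 21 bp from the CG4617 start and 373 bp from that of CG8300. Counting 10 kb on either side, CG4617 had 8 thresholded regions, against a median of 2 over all protein-coding genes, of which 1.41% had 8 or more. All 6 peaks at Sxl are among those 8, so this is largely a second count of the same peaks, with a wider flank than the 5 kb used for Sxl. The peaks at Sxl lay 7464, 6810, 5850, 5161, 4444 and 737 bp from CG4617, from peak 1 to peak 6. Whether the transgene, which carries CG4617, adds to the signal over this locus was not tested.

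**Figure D4:**
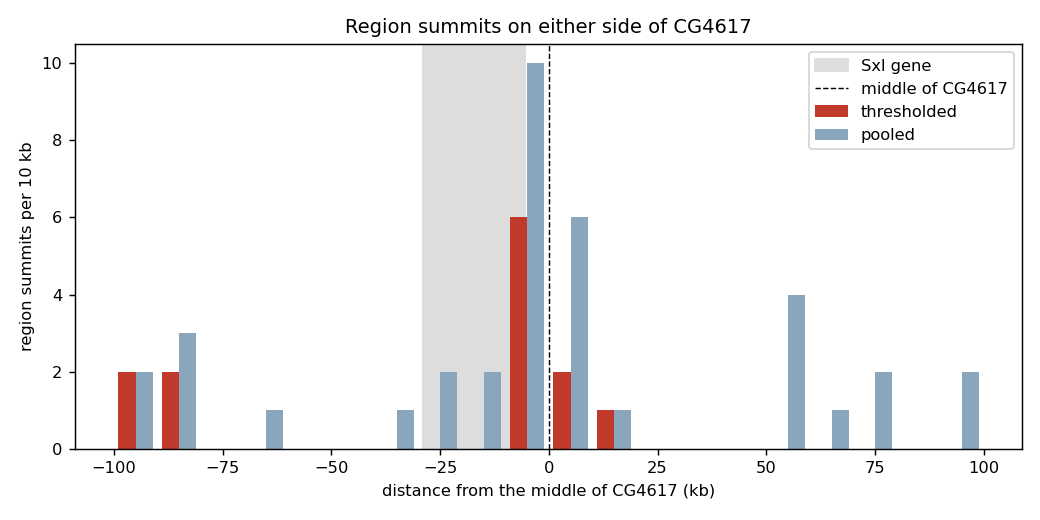
Summits per 10 kb on either side of the middle of CG4617, in the thresholded list (red) and the pooled list (blue), against distance in kb; the grey area is Sxl. The bin next to CG4617 on the Sxl side holds 6 thresholded summits and the one on the other side 2, and the 3′ part of Sxl holds 0.

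Other genes near Sxl differed in having a peak. The frizzled-family receptor gene fz4, beyond CG8300, had a summit 70 bp from its start (signal 273.3, rank 1779), whereas CG4607, on the 3′ side of Sxl, had none nearer than 25155 bp. Inside Sxl, the non-coding gene lncRNA:CR46494 (X:7093771-7094484) held the pooled region nearest to the early start, and the microRNA gene mir-4956 lies farther downstream in the gene, where no thresholded peak was listed.

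The words searched within 100 bp of the summits, on both strands, are bound by known factors. GGTCACACT, bound by M1BP at many promoters, was in 1 Sxl peak, peak 5 at the distal start, and in 7.09% of all 5558 thresholded peaks. CGATA, the word of the insulator protein BEAF-32, was in peaks 1 and 3 and in 37.3% of all peaks. GAGAG, bound by GAGA factor, was in peak 4 and in 19.6% of all. CANNTG, the E-box bound by the Daughterless family, was in peaks 2 and 3 and in 63.9% of all.

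The other words were in 0 of the 6 Sxl peaks. These were TATCGATA (the DREF word, which contains CGATA) in 7.66% of all peaks, CAGGTAG (the Zelda word) in 0.954%, CACGTG (a form of CANNTG) in 2.99%, TATAAA in 26.0% and TTCNNNGAA (the Stat92E word) in 5.88%. A match of these letters is a description and not a binding site, and with 6 peaks a count of 0 says little. For Zelda, only the spelling CAGGTAG was searched.

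Upstream of the starts the picture was of 1 word each. In the 150 bp upstream of the distal start GGTCACACT was found once, against 2.23% of the 19276 windows upstream of protein-coding starts. It is the same occurrence as that counted in peak 5, whose printed sequence lies within those 150 bp. In those upstream of the early start CAGGTAG was found once, against 0.986%, and the other 8 words were not found there. The window upstream of the early start, without a thresholded peak, thus holds this spelling of the word of Zelda, an activator of early genes. Other spellings were not searched. Words that differ from CAGGTAG by a single letter stand in the printed sequence of peak 3, as CAGGTAA and TAGGTAG on the other strand. TAGGTAG also stands in the printed sequence of the early start. No contrast with the peaks is therefore drawn from this word.

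Base composition varied among the peaks. Within 100 bp of the summit G and C made up 27.4, 33.3, 42.3, 40.3, 46.8 and 29.4% from peak 1 to peak 6, against a median of 39.3% over all thresholded peaks. Peak 5, at the distal start, was the richest and peak 1 the poorest.

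Genes that act with Sxl were counted from a list of 35 names, of which 34 matched the annotation and nos did not. Of the 34, 23 (67.6%) had a thresholded summit within 500 bp of a start of their own, against 37.1% of all protein-coding genes. The list was chosen with earlier results of these data known, so the count is a description. The signals of the 23 peaks ran from 131 to 615, and all 23 had their summit inside a region of every replicate. That is common among promoter peaks: 33.6% of all protein-coding genes had one held by all 3 replicates, close to the 37.1% with any. Of the 23 peaks, 9 also lay within 500 bp of a start of another gene. The share of all promoter peaks that do so was not counted, so this is not a trait of the list.

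The genes on the X whose dose the early promoter reads had no such peak, 0 of 4. The share over all genes to set beside this and each group below is 37.1%, and the groups are small. The nearest summits lay 3086 bp from the start of sisA, 14000 bp from upd1, 35458 bp from run and 80366 bp from scute (sc). Counting the gene and 5 kb on either side, sisA did have 3 thresholded regions, where 62.5% of all genes had at least 1. Of the other regulators of the early start, 5 of 8 had one. The signal was 588 at groucho (gro), a co-repressor, 260 at Stat92E and 238 at hopscotch (hop), a transcription factor and the kinase that activates it, 214 at daughterless (da) and 201 at hermaphrodite (her).

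The 3 regulators without a peak were deadpan (dpn), a repressor, with the nearest summit at 5086 bp, extra macrochaetae (emc) at 10463 bp and zelda (zld) at 32201 bp. Whether a regulator had a peak thus varied within this group.

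Of the 12 genes whose products work with Sxl in splicing, 11 had a promoter peak and virilizer (vir) did not, with its nearest summit at 9011 bp. The strongest were female lethal d (fl(2)d) at 615, Hakai at 458 and Ythdc1, a reader of methylated RNA, at 380. Protein partner of snf (pps) had 368, the methyltransferase subunits Mettl14 and Mettl3 307 and 210, and the splicing factors U2af50 and U2af38 250 and 221. Flacc had 239, sans fille (snf), a component of spliceosomal RNPs, 206 and spenito (nito) 198. Of these 11 peaks, 7 also lay within 500 bp of a start of another gene, such as Cdk7 for snf and KrT95D for Mettl3. Without that share over all promoter peaks, the 7 are not a trait of these genes.

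Of the 7 targets or later genes, 6 had a peak and fruitless (fru), with its nearest summit at 25835 bp, did not. The signal was 408 at msl-2, 377 at transformer 2 (tra2), 302 at tra, 163 at intersex (ix), 141 at doublesex (dsx) and 131 at Notch (N). The last 2 lay near the bottom of the thresholded list. Of the 3 genes that work with Sxl in translation, Unr had a peak of 278, while the nearest summits lay 612 bp from Hrb27C and 7072 bp from held out wings (how).

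The genes most like Sxl in the rank of their strongest region were sought among the 123 other genes with 6 thresholded regions in gene and flanks. Likeness was the sum, over the pooled list and the 3 replicate lists, of the differences in position of the strongest region in percent of the list, and smaller is closer. For Sxl the strongest region stood at 2.01% in the pooled list and at 2.80%, 1.98% and 0.578% in replicates 1, 2 and 3. That region was peak 5 in replicate 1 and peak 6, at CG4615, in the other lists. The closest were aru at 2.24 percentage points, Pmvk and msb1l, which share a region, at 2.33 each, CG6550 at 3.10 and CG7222 at 3.14. The likeness is in these ranks only. Pmvk, msb1l and CG6550 are 1259, 1431 and 1842 bp long with 0 summits inside, and aru and CG7222 have 2 each, against 4 in the 23504 bp of Sxl. Pmvk also had no promoter peak.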

How the data were processed

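ChIP-seq regions were read as deposited, in dm6. Each replicate list holds peaks and background regions made from its library and a control, the pooled list comes from all 3 libraries, and the thresholded list was derived from these, per the labels. The signal of a region is the authors' deposited value on an unstated scale, used here only within a list, and the summit is the deposited position. The aligner, the peak caller and the threshold of the irreproducible discovery rate (IDR) were not given in the sources used here. Depth is unknown, and no interval was computed. The antibody field names CG4617, whereas the description names anti-GFP. The lists in dm3 were not used here.

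Ensembl release 115 gave 13968 protein-coding genes. Regions within 5 kb of Sxl were taken. A promoter peak had its summit within 500 bp of a start, and words were searched within 100 bp of summits. Genes named are Sxl, genes within 5 kb of it, genes with a start within 500 bp of its summits, the Sxl-related list and the 5 genes most like it in rank; genes named for other reasons (the most summits, the close runs, fz4, CG8300) were chosen after their values were seen, as were genes with 4 starts, the 10 kb count and words shared by peaks. The members and lists were chosen with earlier results of these data known. No p-value was computed. Counting code (Python 3.11.15, pandas 2.3.3, numpy 2.4.6) was tested on simulated data. Alternatives were other flanks and windows, stronger peaks, X genes only and leaving out each replicate.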

Additional observations from a re-analysis of the deposited data

How the results depend on the processing

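Of 49 alternative values, 35 stayed close to the reported value and 14 moved. Those counted as close included 4 peaks at Sxl, against 6, with the stronger peaks only. They also included 20 Sxl-related genes, against 23, within 250 bp, where 32.9% of all genes had a peak. Some of the 35 were fixed in advance, since a word with 0 matches within 100 bp has 0 within 50 bp. The count of 35 is therefore not a measure of stability. The share of genes with as many regions as Sxl was 0.683% with X genes only. The position of the strongest region, 7.25% in the thresholded list, was 3.72% among X peaks (peak 6 in both). The strongest region stood at 2.80% in replicate 1, where it was that of peak 5, and at 1.98% and 0.578% in replicates 2 and 3, where it was that of peak 6. These lists differ in length. It was peak 3, at 35.6%, with only the peaks in Sxl or at its start (chosen after seeing the data). Peaks with the summit held by all 3 replicates numbered 1 of 6 in the strongest lists. Starts with a summit numbered 1 of 4 within 250 bp, and 0 where the thresholded region had to overlap the start. Each replicate list, however, had a region over the distal start. Sxl-related genes with a promoter peak numbered 15 with the stronger peaks only, where 23.5% of all genes had one. Within 50 bp of the summits, CGATA was in 1 peak, GAGAG in 0 and CANNTG in 0, and within 200 bp CANNTG was in 5. The cause of these shifts was not tested. Leaving out each replicate in turn left 5 peaks held, 3 starts and 23 genes, from lowest to highest, although the thresholded list itself still rests on all 3. The 3 starts and 23 genes were already held by all 3 replicates, so those counts could not fall. No paired analysis was possible because there is 1 group. Unknown depth and mixed ages limit what an empty stretch can show.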

Other observations

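Words of 8 letters shared between the windows of 100 bp around the peaks in Sxl or at its start were listed, chosen after seeing the sequences. GCCGAAAA was in peaks 1, 3 and 4 and in 1.76% of all thresholded peaks. CAACAACA was in peaks 3, 4 and 5 and in 3.92% of all. No test was made, since the words were picked from the same windows.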
